A study of Homo sapiens with 6 samples.

Results

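Keratins are the intermediate filament proteins of epithelial cells, and 10 of them are described here in SiHa cells, a human cervical squamous carcinoma cell line. KRT7, KRT8, KRT18 and KRT19 are keratins of simple, single-layered epithelia, and KRT5, KRT6A, KRT13, KRT14, KRT15 and KRT17 are keratins of stratified squamous epithelia. The genes were found by matching the Ensembl identifiers of the deposited count table to these symbols in GENCODE release 29, and all 10 were present among the 48162 identifiers of the table. With si-CNN3#1, the simple pair KRT8 and KRT18 fell to 87.8% and 88.2% of their si-NC level, the squamous keratin KRT17 rose to 117%, and KRT7 moved too little to pass the test.

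RNA sequencing covered 3 samples that received si-CNN3#1, a short RNA duplex directed at CNN3 (calponin 3, an actin-binding protein), and 3 that received the control duplex si-NC. Every sample therefore carried a transfected duplex, the medium was changed at 24 h by the sample record (the study's methods give a somewhat earlier time), and RNA was taken with Trizol at 48 h. The samples came from independent assays in a single cell line, and si-CNN3#1 was the only CNN3 duplex sequenced. Total counts ran from 18147028 to 24976517 per sample. CNN3 itself had 1134, 1288 and 1234 counts in the si-NC samples and 490, 514 and 574 with si-CNN3#1, so that the groups stood apart. Its level fell from 55.2 ± 2.97 to 28.1 ± 2.95 CPM (counts scaled to the size of each library; SD, n = 3 each), a log2 fold change of -0.97 (SE 0.06, edgeR adjusted p = 2.04e-20). Because RNA was measured in bulk, fewer cells expressing a gene and less RNA per cell cannot be told apart in any value below.

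A keratin filament is an obligate copolymer of acidic type I and basic type II chains, so that a cell needs partners of both types. Among the genes described, KRT5, KRT6A, KRT7 and KRT8 are type II, and KRT13, KRT14, KRT15, KRT17, KRT18 and KRT19 are type I. Simple epithelia make KRT8 with KRT18, joined by KRT7 and KRT19 in ducts and glands. The basal layer of squamous epithelium makes KRT5 with KRT14 and KRT15, its non-cornified upper layers make KRT13, and KRT6A, KRT16 and KRT17 are known for their induction by injury and in hyperproliferative epithelium. In the cervix, KRT7 marks cells of the junction between columnar and squamous epithelium, and KRT17 marks reserve cells.

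On the GRCh38 assembly the type II genes lie in a cluster on chromosome 12 and the type I genes in a cluster on chromosome 17, except KRT18, which lies next to KRT8. KRT7 spans chr12:52232520-52252186 on the plus strand, KRT8 spans chr12:52897187-52949954 on the minus strand, KRT18 spans chr12:52948871-52952901 on the plus strand and KRT17 spans chr17:41619441-41624842 on the minus strand. Some members of a type are close copies of each other, which bears on how reads could be assigned between them, while others such as KRT18 are not. The stretch of 60 bases coding for the end of the helical rod, the helix termination motif, is shown here for 5 type I genes to make this visible. Each is read 5′ to 3′ on the coding strand from the GENCODE release 29 principal transcript, and lies within exon 6. Capitals mark bases that differ from KRT17 (chr17:41620670-41620729), with KRT16 at chr17:41610342-41610401, KRT14 at chr17:41583246-41583305, KRT19 at chr17:41523788-41523847 and KRT18 at chr12:52952269-52952328.
KRT17: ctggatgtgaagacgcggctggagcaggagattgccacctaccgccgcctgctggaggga
KRT16: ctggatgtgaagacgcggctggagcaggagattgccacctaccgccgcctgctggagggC
KRT14: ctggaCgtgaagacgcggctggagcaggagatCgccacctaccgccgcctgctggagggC
KRT19: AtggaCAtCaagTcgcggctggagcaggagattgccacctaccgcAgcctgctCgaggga
KRT18: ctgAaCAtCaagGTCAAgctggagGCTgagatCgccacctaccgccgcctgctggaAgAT
KRT16 differed from KRT17 at 1 of the 60 bases and KRT14 at 3, whereas KRT19 differed at 7 and KRT18 at 16. Over the whole aligned coding sequence, KRT14 was 88.7% identical to KRT16 and 86.4% to KRT17. There KRT16 was 81.2% identical to KRT17, less than KRT14, unlike in the printed stretch. KRT7 was 76.8% identical to KRT8, and KRT17 was 69.6% identical to KRT18.

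The levels of the 10 genes in the si-NC samples fell into an abundant and a scarce set (plot of counts by gene). Levels of different genes were compared per length, as deposited FPKM, which scale counts by gene length and sequencing depth. KRT7 was the highest at 800 ± 11.9 FPKM (SD, n = 3), and KRT8 followed at 531 ± 15.4. The squamous keratin KRT17 came next at 186 ± 6.54 FPKM, above the simple keratin KRT18 at 115 ± 5.45. These 4 genes ranked 91, 162, 650 and 1252 by mean FPKM among all genes of the table. KRT19 followed at 6.72 ± 0.324 FPKM, KRT15 at 1.89 ± 0.0557, KRT6A at 0.918 ± 0.11 and KRT5 at 0.41 ± 0.115. KRT14 and KRT13 were at 0.0251 and 0.0137 FPKM. In this order, the ranges of the 3 si-NC samples were separate for every pair of neighbours except KRT14 and KRT13.

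**Figure D1:**
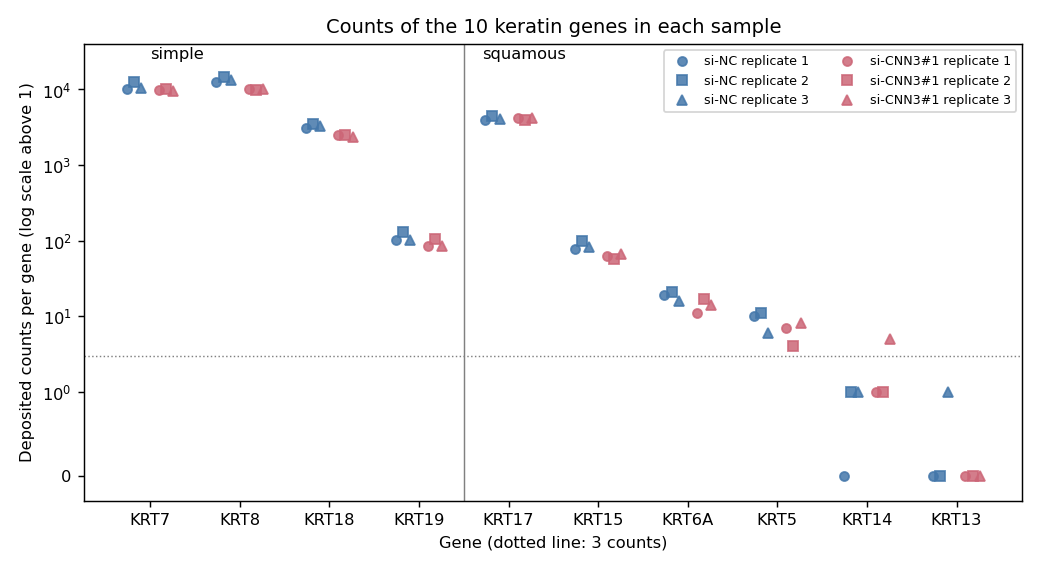
Deposited counts (vertical axis, log scale above 1) of each of the 10 keratin genes in the 3 si-NC samples (blue) and the 3 si-CNN3#1 samples (red), with 1 point per sample and a dotted line at 3 counts. KRT7, KRT8, KRT18 and KRT17 had between 2360 and 14588 counts in every sample, and KRT14 and KRT13 had at most 5.

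The order of the top pair depended on the length used. The deposited FPKM imply a length of 618 bases for KRT7 and 1136 for KRT8, whereas their principal transcripts (the main isoform in the annotation) have 1754 and 1882 bases. For 59.9% of genes the implied length was the mean over all annotated transcripts of the gene, within 1 base. As CPM per kilobase of principal transcript, a scale added after the data were seen, KRT8 (323 ± 10.6, SD, n = 3) stood above KRT7 (284 ± 3.9) in si-NC samples, and the rest of the order was the same. On that scale KRT7 (297 ± 3.58) stood above KRT8 (283 ± 11.9) with si-CNN3#1.

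Of the 10 genes, 7 had enough counts to be tested, and 3 of these passed an adjusted p of 0.05 between si-CNN3#1 and si-NC (edgeR quasi-likelihood test, Benjamini-Hochberg over the 15860 tested genes). Over all tested genes, 13.3% passed. Among the keratins, 1 was higher, against 6.17% of all tested genes, and 2 were lower, against 7.14%. These shares cover genes of every level, and genes as abundant as the keratins that passed were not set apart. The keratins that passed each had an SE of 0.03, whereas KRT19, KRT15 and KRT6A had 0.13, 0.15 and 0.32. The CPM of the groups did not overlap for 5 of the 7 tested genes, against 28.2% of all tested genes. The median log2 fold change was -0.11 over the 4 simple keratins and -0.17 over the 3 tested squamous keratins, beside 0.00226 over all tested genes. The simple median is the mean of KRT18 and KRT19 and the squamous median is KRT6A, and the genes are given one by one below.

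KRT8, the type II partner of KRT18, had 12548, 14588 and 13191 counts in the si-NC samples and 10248, 9745 and 10019 with si-CNN3#1. In CPM scaled by TMM (edgeR's correction for library composition), these were 625, 586 and 611 against 544, 507 and 549. The groups did not overlap, and every si-CNN3#1 sample was the lower. The mean fell from 608 ± 19.9 to 533 ± 22.5 CPM (SD, n = 3), a log2 fold change of -0.19 (SE 0.03, 95% interval -0.24 to -0.13, edgeR adjusted p = 4.87e-07).

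KRT18, the type I partner of KRT8, had 3055, 3448 and 3250 counts in the si-NC samples and 2466, 2485 and 2360 with si-CNN3#1. Its CPM were 152, 139 and 151 against 131, 129 and 129, again without overlap. The si-CNN3#1 samples lay close together, while si-NC replicate 2 was the lowest control for both KRT8 and KRT18. The mean fell from 147 ± 7.51 to 130 ± 0.843 CPM (SD, n = 3), a log2 fold change of -0.18 (SE 0.03, 95% interval -0.24 to -0.11, edgeR adjusted p = 5.31e-05). The ratio of KRT8 to KRT18 FPKM was 4.63 ± 0.0994 in si-NC and 4.6 ± 0.187 with si-CNN3#1 (SD, n = 3), with overlapping groups.

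KRT7, the other abundant type II chain, had 10057, 12508 and 10572 counts in the si-NC samples and 9737, 10134 and 9445 with si-CNN3#1. Its CPM were 501, 503 and 490 against 516, 528 and 517, and the groups did not overlap. The difference was small, from 498 ± 6.84 to 520 ± 6.28 CPM (SD, n = 3), with a log2 fold change of 0.06 (SE 0.03, 95% interval 0.01 to 0.11), and its edgeR adjusted p of 0.0832 missed the threshold. With total counts in place of TMM, the edgeR adjusted p was 0.0159, whereas RLE and upper quartile scaling left it at 0.0812 and 0.0548. Limma on log2(FPKM + 1), which also differs in unit and filter, gave 0.0356. The ratio of KRT7 to KRT8 FPKM was 1.51 ± 0.0594 in si-NC and 1.8 ± 0.0995 with si-CNN3#1 (SD, n = 3), without overlap.

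KRT19, a type I keratin of ducts and glands that lacks the tail domain of other keratins, was scarce in these cells. It had 103, 130 and 103 counts in the si-NC samples and 86, 104 and 85 with si-CNN3#1. The groups overlapped, and the log2 fold change was -0.05 (SE 0.13, 95% interval -0.30 to 0.21, edgeR adjusted p = 0.865).

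Among the squamous keratins, only KRT17 was abundant. KRT17 had 3894, 4469 and 4041 counts in the si-NC samples and 4179, 3945 and 4232 with si-CNN3#1. In raw counts the groups overlapped, since the si-NC samples were sequenced more deeply. In CPM they did not, with 194, 180 and 187 against 222, 205 and 232. The mean rose from 187 ± 7.28 to 220 ± 13.3 CPM (SD, n = 3), a log2 fold change of 0.23 (SE 0.03, 95% interval 0.17 to 0.30, edgeR adjusted p = 1.78e-07). KRT17 was higher in 3 of 3 si-CNN3#1 samples than in every si-NC sample.

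**Figure D2:**
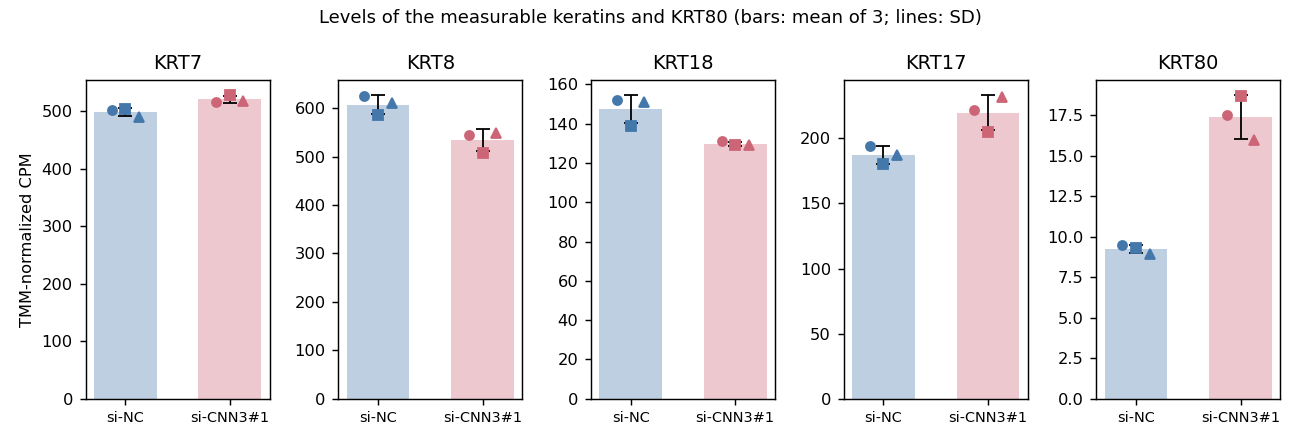
TMM-normalized CPM (vertical axes, each from 0) of KRT7, KRT8, KRT18, KRT17 and KRT80 in each si-NC (blue) and si-CNN3#1 (red) sample, with bars for the mean of 3 samples and lines for the SD. KRT8 and KRT18 were lower in all si-CNN3#1 samples and KRT17 and KRT80 higher. KRT7 was also higher in all of them, at a mean of 520 CPM against 498 in si-NC, but did not pass the test.

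KRT15, a basal type I keratin, had 77, 100 and 83 counts in the si-NC samples and 62, 57 and 67 with si-CNN3#1. Its CPM were 3.84, 4.02 and 3.85 against 3.29, 2.97 and 3.67, so that the groups did not overlap. The log2 fold change of -0.24 (SE 0.15, 95% interval -0.54 to 0.06) did not pass the test (edgeR adjusted p = 0.328). KRT6A had 19, 21 and 16 counts in the si-NC samples and 11, 17 and 14 with si-CNN3#1, with overlapping CPM and a log2 fold change of -0.17 (SE 0.32, 95% interval -0.81 to 0.46, edgeR adjusted p = 0.8). At this depth, a change of the size seen for KRT17 lies inside the interval of KRT6A.

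KRT5, KRT14 and KRT13 had too few counts to be tested. KRT5, the type II chain of basal squamous cells, had 10, 11 and 6 counts in the si-NC samples and 7, 4 and 8 with si-CNN3#1. Its type I partner KRT14 had 0, 1 and 1 counts in the si-NC samples and 1, 1 and 5 with si-CNN3#1. KRT13 had 0, 0 and 1 counts in the si-NC samples and none with si-CNN3#1. A floor of 3 counts corresponds to between 0.12 and 0.165 CPM in these samples, counting error only, and differences in KRT14 and KRT13 were not detectable at this depth. The classical basal pair was thus barely detected for KRT5 and at or near the floor for KRT14, while KRT8 and KRT18, with CDH1 (E-cadherin) at 36.6 CPM and EPCAM at 6.25 CPM in si-NC, were present.

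The class totals rested on few genes. KRT17 made up 186 of the 190 FPKM summed over the squamous keratins in si-NC, and KRT7 with KRT8 made up most of the 1450 FPKM summed over the simple ones. The squamous share of the summed FPKM of all 10 genes was 11.8%, 11.3% and 11.6% in the si-NC samples and 13.7%, 12.9% and 14.2% with si-CNN3#1. The groups did not overlap, and the means were 11.5% ± 0.246 and 13.6% ± 0.642 (SD, n = 3). On the log2 scale the ratio of squamous to simple FPKM was -2.94 in si-NC and -2.67 with si-CNN3#1, a difference of 0.268, or 0.307 with principal transcript lengths. The difference of the class medians was -0.0604 (squamous minus simple), with a sign that turned in 5 settings, up to 0.148 with limma on log2(FPKM + 1). No p is given for these sums, since the genes were chosen with earlier results of these data known.

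**Figure D3:**
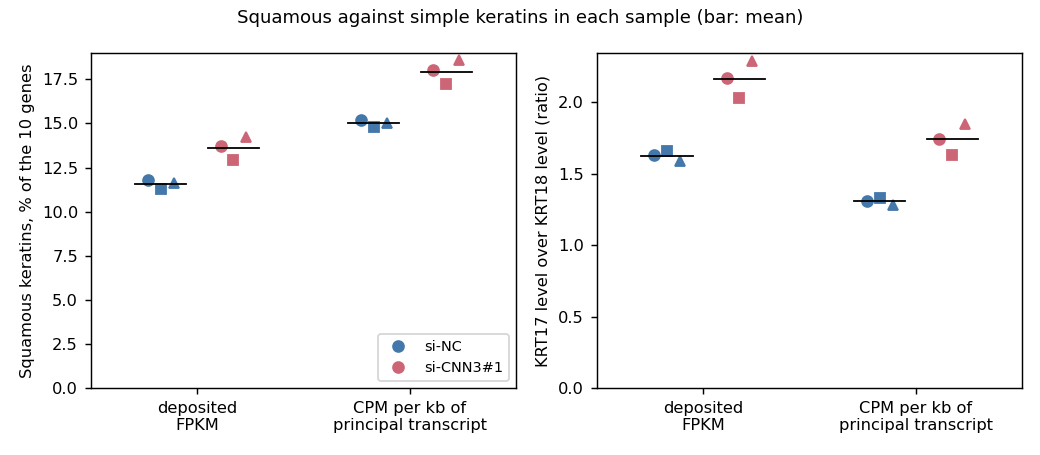
Left, squamous keratins as a percentage of the summed level of the 10 genes, and right, the ratio of KRT17 to KRT18, in each si-NC (blue) and si-CNN3#1 (red) sample, from deposited FPKM or from CPM per kilobase of principal transcript. Horizontal bars are means of 3 samples, and on both scales the si-CNN3#1 samples lie above the si-NC samples.

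Over the 10 genes only, type II over type I FPKM was 4.3 ± 0.138 in si-NC and 3.97 ± 0.128 with si-CNN3#1 (SD, n = 3), without overlap. Other keratins were left out, such as the type I KRT10 and KRT16 and the type II KRT80, at 24.1, 7.38 and 2.47 FPKM in si-NC. With principal transcript lengths the ratio was 2.74 ± 0.0772 and 2.5 ± 0.0577, so that its absolute size depended on the lengths. Among type I chains, KRT17 over KRT18 was 1.63, 1.66 and 1.59 in the si-NC samples and 2.17, 2.03 and 2.29 with si-CNN3#1. That ratio thus separated the groups, whereas KRT8 over KRT18 did not.

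The annotation holds 45 other protein-coding keratins, of which 6 could be tested and 1 passed, beside 13.3% of all tested genes. KRT80, a type II keratin of differentiating epithelia at chr12:52168996-52192000, had 190, 231 and 193 counts in the si-NC samples and 330, 359 and 293 with si-CNN3#1. The groups did not overlap, and KRT80 rose from 9.23 ± 0.265 to 17.4 ± 1.33 CPM (SD, n = 3), a log2 fold change of 0.92 (SE 0.08, edgeR adjusted p = 4.5e-13). Its fold change was larger than that of any of the 10 listed genes that passed, at a level well under that of KRT17.

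The other 5 tested keratins did not pass. KRT16, the type I keratin closest to KRT17 in the printed stretch, had 153, 182 and 165 counts in the si-NC samples and 170, 150 and 173 with si-CNN3#1. In CPM its groups did not overlap, and the log2 fold change was 0.22 (SE 0.1, edgeR adjusted p = 0.155). KRT10, the type I keratin of suprabasal skin, was at 51.6 ± 1.84 CPM in si-NC (SD, n = 3) with a log2 fold change of 0.06 (SE 0.05, edgeR adjusted p = 0.493). KRT4, KRT81 and KRT86 were below 2 CPM in every sample, with log2 fold changes of 0.66 (SE 0.33), 0.20 (SE 0.37) and 0.19 (SE 0.26). KRT1 and KRT2, keratins of cornified epidermis, and 14 other keratin genes had no counts in any sample.

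**Figure D4:**
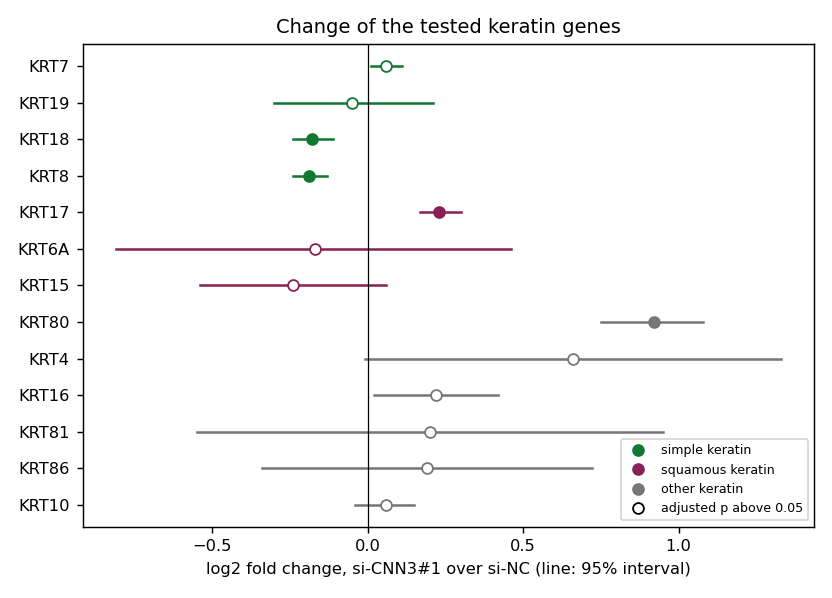
Log2 fold change of the 13 tested protein-coding keratins, si-CNN3#1 over si-NC (horizontal axis), with 95% intervals as lines, simple keratins in green, squamous keratins in purple and others in grey. Filled points passed an adjusted p of 0.05, namely KRT18 and KRT8 to the left of 0 and KRT17 and KRT80 to the right.

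Several of these genes share sequence or position with others, and the strand setting and the handling of reads with several matches are not given in the sources used here. KRT8 and KRT18 overlap by 1084 bases on opposite strands. KRT7 overlaps its antisense gene KRT7-AS by 2401 bases. KRT7-AS had 188 to 275 counts per sample, 2.16% of the counts of KRT7, with a log2 fold change of -0.04 (SE 0.09, edgeR adjusted p = 0.84). On the same strand, KRT7 overlaps KRT86 by 2887 bases, and KRT86 had 18 to 41 counts per sample, 0.264% of those of KRT7. Of all stretches of 100 bases in the principal transcript, in either orientation, 16.6% were shared with transcripts of another gene for KRT18, 7.67% for KRT7, 6.73% for KRT8 and 0.353% for KRT17. Of stretches of 50 bases, these shares were 47.6%, 10.8%, 37.1% and 17.4%, and the read length is not given in the sources used here. At 100 bases none was shared for KRT19, KRT15 or KRT80, 5.95% were shared for KRT14 and 18.2% for KRT6A, which is 97.5% identical to KRT6B and 97.9% to KRT6C in coding sequence. KRT13 (14.8%), KRT16 (7.18%) and KRT5 (1.44%) also shared stretches of 100 bases. At 100 bases KRT18 shared only with KRT8 and KRT7 only with KRT7-AS, which lie on the opposite strand. For every gene with shared stretches, KRT18, KRT8, KRT7, KRT17, KRT14 and KRT6A included, which gene some of the counts belong to is therefore uncertain.

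Processed copies of KRT8 and KRT18 are common in the genome. The 50 pseudogenes named after KRT8 had 207 to 260 counts in sum per sample, 1.63% to 2.44% of the counts of KRT8, and the 67 named after KRT18 had 56 to 79, 1.72% to 3.2% of those of KRT18. Of 146 keratin pseudogenes, 6 were tested and 0 passed with edgeR, 0 also at an unadjusted p under 0.05. Of all tested genes, 13.3% passed with edgeR. DESeq2 gave an adjusted p for only 1 pseudogene and limma on filtered log2(FPKM + 1) for 2, and 0 passed. The most counted were KRT8P12, at 7.62 ± 0.703 CPM in si-NC with a log2 fold change of 0.10 (SE 0.1), and KRT87P, at 2.22 ± 0.151 CPM with a log2 fold change of 0.21 (SE 0.18). KRT87P is an unprocessed pseudogene that overlaps KRT7 by 1721 bases on the opposite strand, and is not named after KRT8 or KRT18. None of the tested copies of KRT8 and KRT18 was called lower, unlike their parent genes. Their SE ran from 0.1 (KRT8P12) to 0.39 (KRT18P34), against 0.03 for KRT8 and for KRT18. Whether the difference from their parent genes exceeds error was not tested.

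Keratin filaments are held at desmosomes and hemidesmosomes by plakins and their partners. Of 26 such genes listed, 19 were tested, and 1 was higher and 0 were lower with edgeR (3 and 3 at an unadjusted p under 0.05). Of all tested genes, 6.17% were higher and 7.14% lower. The median log2 fold change of the list was -0.00873. DESeq2 and limma on log2(FPKM + 1) also called 1 higher and 0 lower. The one that rose was CD151, a tetraspanin of hemidesmosomes, from 135 ± 0.481 to 146 ± 4.57 CPM (SD, n = 3), a log2 fold change of 0.12 (SE 0.03, edgeR adjusted p = 0.00714), which was lost without si-CNN3#1 replicate 1 (0.09, edgeR adjusted p = 0.0795). The most abundant, PLEC (plectin, which links keratins to other cytoskeletal fibres), was at 1630 ± 41.3 CPM in si-NC with a log2 fold change of -0.05 (SE 0.03, edgeR adjusted p = 0.238). FAM83H, which organizes keratin filaments, and PERP, a desmosome protein, were at 291 and 228 CPM with log2 fold changes of -0.07 and -0.04. DSG1, DSG4 and DSC1, desmosomal cadherins of cornified layers, had no counts.

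Among other intermediate filament genes, 8 of 13 listed were tested, 0 were higher and 3 were lower with edgeR and DESeq2, with a median log2 fold change of -0.0617. Of all tested genes, 7.14% were lower. At an unadjusted p under 0.05, edgeR gave 1 higher and 3 lower in the list, and limma on log2(FPKM + 1) called 0 after adjustment. The 3 were the nuclear lamins LMNB2 at -0.10 (edgeR adjusted p = 0.00721), LMNB1 at -0.09 (0.0209) and LMNA at -0.08 (0.0307), each SE 0.03. All 3 lay nearer 0 than KRT8 and KRT18. NEFH, a neurofilament chain, was at 571 ± 20.4 CPM in si-NC (SD, n = 3) with a log2 fold change of -0.04 (SE 0.03). VIM (vimentin, the filament of mesenchymal cells), singled out after its values were seen, had 6, 8 and 5 counts in the si-NC samples and 3, 2 and 3 with si-CNN3#1.

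Genes of squamous differentiation and the cornified envelope were mostly silent. Of 29 listed, 12 had no counts in any sample, including IVL (involucrin), LOR (loricrin) and SPRR3, and 9 were tested. ANXA1 (annexin A1) was higher by 0.07 (SE 0.03, edgeR adjusted p = 0.0498) and EMP1 (epithelial membrane protein) by 0.10 (SE 0.03, edgeR adjusted p = 0.0328), and both calls were lost with DESeq2 (adjusted p = 0.0798 and 0.129). S100A8 and S100A9, calcium-binding proteins of inflamed epithelium and myeloid cells, were lower by fitted log2 fold changes of -1.71 (SE 0.41, edgeR adjusted p = 0.00224) and -0.60 (SE 0.2, edgeR adjusted p = 0.037). S100A8 had 11, 102 and 18 counts in the si-NC samples and 11, 12 and 10 with si-CNN3#1, so that the difference rested on si-NC replicate 2. LYZ (lysozyme, a myeloid marker), singled out after its values were seen, also stood out in that sample, with 2, 26 and 2 counts in the si-NC samples and 1, 3 and 1 with si-CNN3#1, and its part in the S100A8 and S100A9 values was not tested. Without that sample the log2 fold changes were -0.25 (edgeR adjusted p = 0.802) for S100A8 and -0.06 (0.908) for S100A9. The median over the 9 tested genes was 0.0743. Of these, 2 were called higher and 2 lower with edgeR, beside 6.17% and 7.14% of all tested genes.

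Transcription factors known to act on keratin genes or on squamous identity moved in both directions. Of 30 listed, 24 were tested, 6 were higher and 5 lower, beside 6.17% and 7.14% of all tested genes, with a median log2 fold change of 0.0304. DESeq2 and limma on log2(FPKM + 1) each called 4 higher and 3 lower. TP63 (p63, the master factor of squamous basal cells) had 60, 63 and 59 counts in the si-NC samples and 73, 96 and 79 with si-CNN3#1, which is a log2 fold change of 0.68 (SE 0.15, edgeR adjusted p = 0.000958). KLF4, a factor of epithelial differentiation, had 38, 59 and 55 against 60, 84 and 75 counts, and rose by 0.77 (SE 0.17, edgeR adjusted p = 0.000807). Both calls were lost only with unfiltered limma on log2(FPKM + 1) (adjusted p = 0.15 and 0.149). Both rose from low levels, 2.75 ± 0.23 CPM for TP63 and 2.27 ± 0.339 CPM for KLF4 in si-NC (SD, n = 3).

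The AP-1 factors, which bind many keratin promoters, did not move together. JUN rose from 40.6 ± 3.78 to 52.7 ± 4.13 CPM (SD, n = 3), a log2 fold change of 0.38 (SE 0.05, edgeR adjusted p = 2.12e-07; 0.0751 with unfiltered limma). JUNB fell from 136 ± 3.08 to 118 ± 3.87 CPM, a log2 fold change of -0.21 (SE 0.03, edgeR adjusted p = 2.54e-06). NOTCH1, a receptor that drives squamous differentiation, had 2835, 3505 and 3072 counts in the si-NC samples and 2280, 2288 and 2043 with si-CNN3#1, and changed by -0.27 (SE 0.03, edgeR adjusted p = 4.14e-09). SP1, a factor with sites in many keratin promoters, changed by -0.12 (SE 0.03, edgeR adjusted p = 0.0011). NFE2L2, a stress-response factor with keratin targets, changed by 0.09 (SE 0.03, edgeR adjusted p = 0.0252; 0.0754 with DESeq2), and STAT3 by 0.00 (SE 0.03, edgeR adjusted p = 0.964).

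**Figure D5:**
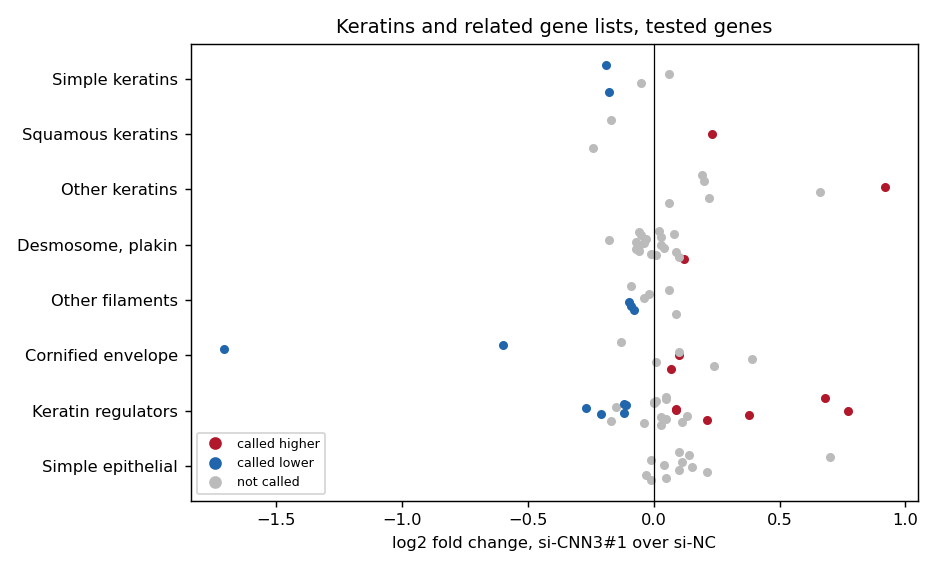
Log2 fold change, si-CNN3#1 over si-NC (horizontal axis), of every tested gene in 8 gene lists (rows), with 1 point per gene, red for genes called higher, blue for genes called lower and grey for the rest. The 4 simple keratins lie between -0.19 and 0.06, and the points farthest to the left are S100A8 at -1.71 and S100A9 at -0.60.

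No gene was called among the other genes of simple or glandular epithelium. Of 16 listed, 12 were tested and 0 passed with edgeR, beside 13.3% of all tested genes. At an unadjusted p under 0.05 edgeR gave 0 as well, and the median log2 fold change was 0.0976. DESeq2 gave an adjusted p for 9 of the listed genes and limma on filtered log2(FPKM + 1) for 10, and 0 passed. CD63, ESRP2 and MUC1, the most abundant, were at 303 ± 1.87, 141 ± 4.45 and 54 ± 0.18 CPM in si-NC (SD, n = 3) with log2 fold changes of -0.01, 0.04 and -0.01.

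Markers of other cell types were low or did not change, apart from CD14. The 6 fibroblast markers summed to 11.2 to 12.5 CPM in si-NC and 11.8 to 13 with si-CNN3#1. With edgeR, 0 of 5 tested markers were called (1 at an unadjusted p under 0.05), beside 13.3% of all tested genes. DESeq2 gave an adjusted p for 2 of the 6 markers and limma on filtered log2(FPKM + 1) for 3, and 0 passed. The 3 endothelial markers in the table (VWF, CDH5 and KDR) had at most 9 counts in any sample. The 5 leukocyte markers summed to 145 to 156 CPM in si-NC and 120 to 128 with si-CNN3#1, and CD14 made up 149 and 121 CPM of these, a log2 fold change of -0.30 (SE 0.03, edgeR adjusted p = 7.88e-10). The pan-leukocyte marker PTPRC was at 0.632 CPM in si-NC and 0.553 with si-CNN3#1, and CD3E at 1.6 and 1.5 CPM. The part of CD14 in the keratin differences was not tested.

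The genes whose log2 CPM followed KRT7 most closely over the 6 samples were AC106037.2 (Pearson r = 0.991), SLC22A15 (0.99) and SOCS6 (0.988). Those closest to KRT17 were ATP5MD (r = 0.999), ZUP1 (0.997) and PSMA4 (0.995). These are descriptions over 6 samples that fall into the 2 groups and share their library depth, taken from all tested genes, and no p is given. SLC22A15 and ATP5MD passed the test themselves, with log2 fold changes of 0.20 (SE 0.05, edgeR adjusted p = 0.00468) and 0.20 (SE 0.04, edgeR adjusted p = 0.000149), and the call of SLC22A15 was lost with DESeq2 (adjusted p = 0.0535).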

How the data were processed

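SiHa cells transfected with si-CNN3#1 (n = 3) or si-NC (n = 3) were sequenced from total RNA with the Illumina TruSeq RNA kit. After screening and TopHat2 alignment, the authors deposited raw read counts for every Ensembl gene. The FPKM values they also deposited return those counts with 1 whole-number length per gene. The submitters' processing notes name TopHat2 2.0.9, Bowtie2 2.0.6, HTSeq and DESeq 1.10.1. The genome build, the annotation, the strand setting and how multiply matching reads were handled are not given in the sources used here.

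Of the 48162 identifiers, 45342 were named from GENCODE 29 (GRCh38), the source of all coordinates, and 2820 unnamed ones stayed in the test. Counts were tested in R 4.3.3 with edgeR 4.0.16 (TMM, filterByExpr defaults, quasi-likelihood F test, group as the only term), adjusted by Benjamini-Hochberg over 15860 genes at a threshold of 0.05. SE was the absolute log2 fold change over the square root of F. The common biological coefficient of variation was 0.0232. Sums, ratios and levels were given without a test. The study's methods name independent assays, and pairs of samples within a group exceeded Poisson error (chi-square over its degrees of freedom, 1.56 to 1.98), so none was treated as a library deposited again. Intervals and floors of 3 counts cover counting error only where no replicates are used.

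Alternatives were RLE, upper quartile and total-count scaling, DESeq2 1.42.0, other count filters, the replicate number as a block, each sample left out, and limma 3.58.1 on log2 FPKM with a pseudocount of 1 or 0.1, which understates the change of low genes. Principal transcript lengths were added after the data were seen. The main edgeR test, DESeq2 and limma on filtered log2(FPKM + 1) were tried on simulated data with known changes, and the other settings were not. In the simulation 200 genes were changed by 0.5 or 1 on the log2 scale. Changes as small as those of the tested keratins among the 10 were not simulated. Named genes were the 10 keratins, CNN3, other keratin genes and pseudogenes with at least 10 counts in a sample, the called genes of each list (up to 5 by adjusted p) with its 3 most abundant genes, and the 3 genes most correlated with KRT7 and with KRT17. EPCAM, CDH1, VIM and LYZ, KRT6B and KRT6C (named for their sequence only), and genes named as having no counts, fall outside this rule. The keratins and the lists were chosen with earlier results of these data known. The motif sequences of the type II keratins are not reported here, and PECAM1, EPPK1 and NEFL were not analysed here.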

Additional observations from a re-analysis of the deposited data

How the results depend on the processing

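KRT8, KRT18 and KRT17 passed in 16 of 17 settings, the main one included, with log2 fold changes of -0.21 to -0.15, -0.22 to -0.15 and 0.19 to 0.28. The exception was limma on log2(FPKM + 1) without a filter, where 0 of the 10 keratins were called, 0 higher and 0 lower, and adjusted p was 0.0675, 0.0774 and 0.0516. KRT80 passed in 17 of 17. KRT7 passed in 4 (adjusted p 0.00828 to 0.299 over all), so that 2 keratins were called higher with total counts only, with the replicate block, and with limma on filtered log2(FPKM + 1) or log2(FPKM + 0.1).

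Over all genes, edgeR called 2111 (978 higher, 1133 lower), DESeq2 1087 (436 higher, 651 lower), limma 1363 (564 lower) with a pseudocount of 1, 1353 (564 lower) with 0.1, and 585 (316 higher, 269 lower) without a filter. Leaving out a sample gave 1551 to 1747 calls (691 to 812 higher, 855 to 958 lower). Higher calls were 46.3% of all, but 1294 of 2157 with total counts only, and 58.6% and 58.3% with filtered limma. The squamous minus simple median of -0.0604 changed sign under limma, at 0.148, 0.116 and 0.0517, and ran from -0.129 (without si-NC replicate 3) to 0.0674 (without si-CNN3#1 replicate 1), with 0.00269 without si-NC replicate 1. The main squamous median is KRT6A, at -0.17 (SE 0.32). KRT6A was at -0.03 without si-CNN3#1 replicate 1 and at -0.09 without si-NC replicate 1. Filtered limma kept genes with a mean FPKM of at least 1. It gave no value for KRT6A, which was at 0.918 FPKM in si-NC and 0.821 with si-CNN3#1. Why KRT6A moved between settings was not tested. The summed squamous over simple difference stayed positive, at 0.231 to 0.31 without single samples.

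Same-numbered samples deviated together only weakly (correlations 0.0105, 0.0329 and 0.0275), so the number was not taken as a pairing, although each sample correlated best with its own number. With the replicate block, 2727 genes were called (1272 higher), and KRT7 had an adjusted p of 0.00828. It ended no call of the 10 keratins. Among the other named genes, the calls of EMP1, ANXA1, S100A8, S100A9, NFE2L2, CD151, SLC22A15, JUN, KLF4, TP63 and the lamins were lost in at least 1 setting. KRT5, KRT13 and KRT14 were limited by depth.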
